A study of Mus musculus with 20 samples.

Results

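The MHC class II presentation genes described here are H2-Aa, H2-Ab1, H2-Eb1, Cd74, Ciita, H2-DMa, H2-DMb1, H2-Oa and H2-Ob. They were chosen by gene symbol, through the Entrez identifiers of the deposited expression table, and make up 9 of its 25869 genes. No measured value enters that rule. All 9 are annotated as protein coding.

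RNA-seq was performed on 20 mouse libraries of cells from a CRISPR activation (CRISPRa) mouse and of comparison cells. In this mouse, dCas9-VP64 and MS2-p65-HSF1 are made in all tissues from a CAG promoter at the Rosa26 locus (dCas9a-SAM KI/+), and an sgRNA directs them to raise an endogenous gene. The 10 libraries of mouse embryonic fibroblasts (MEFs) were 2 WT, 2 dCas9a-SAM KI/+ without an sgRNA, 2 dCas9a-SAM KI/+ with a non-targeting sgRNA (sgNT) and 4 dCas9a-SAM KI/+ with an sgRNA to Bcl-2 (sgBcl-2). By their labels, each dCas9a-SAM group came from 2 MEF lines numbered 1 and 2. The sgBcl-2 libraries 7 and 8 came from line 1 and libraries 9 and 10 from line 2. Within each line they are titled BCL2_1 and BCL2_2, and what these titles stand for is not stated. The 4 sgBcl-2 libraries are thus not 4 separate MEF lines. The 6 lymphoma lines and the 2 primary tumours carried the Eµ-Myc transgene, which drives Myc in B lineage cells, together with dCas9a-SAM KI/+ and sgBcl-2.

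The lymphomas arose in lethally irradiated recipient mice transplanted with transduced haematopoietic stem and progenitor cells, and each line came from 1 mouse. Lines 14, 15, 16 and 17 were labelled IgM positive and lines 18 and 19 IgM negative, and the primary tumours 20 and 21 were IgM positive and came from the mice of lines 14 and 15. The 2 preB-ALL libraries carried BCR-ABL1 (p190T/+), an oncogene of B cell precursor leukaemia, and are called replicate 1 (titled P190CreERLSLErg) and replicate 2 (titled P190RagCreErg). They were grown with IL7, and their RNA was taken with another kit, so tumour type and handling cannot be told apart in any comparison with them. All cells were untreated. The labels do not say which replicates are separate cultures, so p-values measure the spread between these libraries.

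MHC class II molecules present peptides from endosomes to CD4+ T cells and are made chiefly by B cells, dendritic cells and macrophages. Their transcription needs CIITA, a coactivator without DNA binding of its own, which joins RFX, CREB and NF-Y proteins at conserved X and Y boxes upstream of these genes. The invariant chain CD74 fills the peptide groove of new class II molecules, DM later exchanges the fragment that is left for other peptides in endosomes, and DO, found mostly in B cells, inhibits DM.

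RefSeq promoter windows (GRCm38.p6) were at hand for 6 of the 9 members, in 7 windows, and H2-Ab1, Ciita and Cd74 had no entry. The 150 bases before the gene start are printed for the 5 members whose window held an X box core (AGNNACNGA) or a Y box core (GATTGG) on either strand, since the results below turn on how far each gene varied with Ciita. Sequences run 5′ to 3′ in the direction of the gene, with the matches in capitals.
H2-Eb1, chr17:34305717-34305866, plus strand: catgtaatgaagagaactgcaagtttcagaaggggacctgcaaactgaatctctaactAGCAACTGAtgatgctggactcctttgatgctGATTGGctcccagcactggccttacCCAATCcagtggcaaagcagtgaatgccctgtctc
H2-DMb1, chr17:34153041-34153190, plus strand: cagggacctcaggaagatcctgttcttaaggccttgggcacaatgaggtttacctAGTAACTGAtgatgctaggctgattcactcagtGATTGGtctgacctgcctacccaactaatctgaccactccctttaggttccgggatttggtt
H2-Oa, chr17:34092229-34092378, plus strand: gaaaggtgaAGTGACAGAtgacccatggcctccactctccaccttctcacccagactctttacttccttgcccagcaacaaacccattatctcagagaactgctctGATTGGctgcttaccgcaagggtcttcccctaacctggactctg
H2-Aa, chr17:34287824-34287973, minus strand: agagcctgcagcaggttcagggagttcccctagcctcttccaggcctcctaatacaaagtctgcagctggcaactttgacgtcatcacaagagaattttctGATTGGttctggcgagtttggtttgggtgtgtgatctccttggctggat
H2-Ob, chr17:34238755-34238904, plus strand: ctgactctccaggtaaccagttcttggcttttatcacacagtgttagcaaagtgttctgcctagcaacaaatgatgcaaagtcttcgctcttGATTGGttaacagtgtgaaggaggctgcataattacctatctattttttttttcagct

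The windows of H2-Eb1, H2-DMb1 and H2-Oa held both cores, and those of H2-Aa and H2-Ob held the Y core alone. Neither core was found in the 2 windows of H2-DMa, at 34122682-34122831 and 34125368-34125517. Both lie inside the span of this gene (34119693-34139101), so the bases before the start of that span were not searched. Among all 32851 promoter windows of this length, 8.72% held the X core, 10.9% the Y core and 0.953% both. Counted to the first base of the match, the X core AGTAACTGA of H2-DMb1 lay 95 bases and AGCAACTGA of H2-Eb1 lay 92 bases before the gene start, whereas AGTGACAGA of H2-Oa lay 141 bases before it. These are matches of letters only, and a box with other letters would be missed, so a window without a match may still hold one.

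In the GRCm38.p6 assembly, 7 of the 9 genes lie within 224.3 kb of chromosome 17. H2-Oa is at 34092379-34095234, H2-DMa at 34119693-34139101, H2-DMb1 at 34153191-34160229, H2-Ob at 34238905-34245908, H2-Ab1 at 34263227-34269418, H2-Aa at 34282744-34287823 and H2-Eb1 at 34305867-34316674. Ciita lies on chromosome 16 at 10480014-10531064, and Cd74 on chromosome 18 at 60803849-60812652. Reads of H2-DMb1 and its near copy H2-DMb2, and of H2-Eb1 and H2-Eb2, may be split between the copies, and reads on either strand cannot be told apart with the library kit used.

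The recovered depth was 12474885 to 26678417 reads per library, lowest in the preB-ALL libraries, and 3 reads corresponded to 0.1125 to 0.2405 CPM, the read count scaled to the depth of its library. Cd79a, which defines B cells, was at 325 to 2059 CPM in the lines, tumours and preB-ALL libraries and at most 0.646 CPM in MEFs. WT MEF library 13 stood apart from the other MEFs and its values are named throughout. The 15 myeloid markers summed to 374 CPM in it, with 14 of them at 1 CPM or more, against 9.49 CPM in WT library 11, and its Col1a1, the main fibroblast collagen, was 352 CPM against 3682 CPM. The 12 fibroblast markers summed to 5713 and 2447 CPM in the preB-ALL libraries and to 5.57 to 60.2 CPM in the lines. In bulk libraries, fewer cells of a type and less RNA per cell cannot be told apart.

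**Figure D1:**
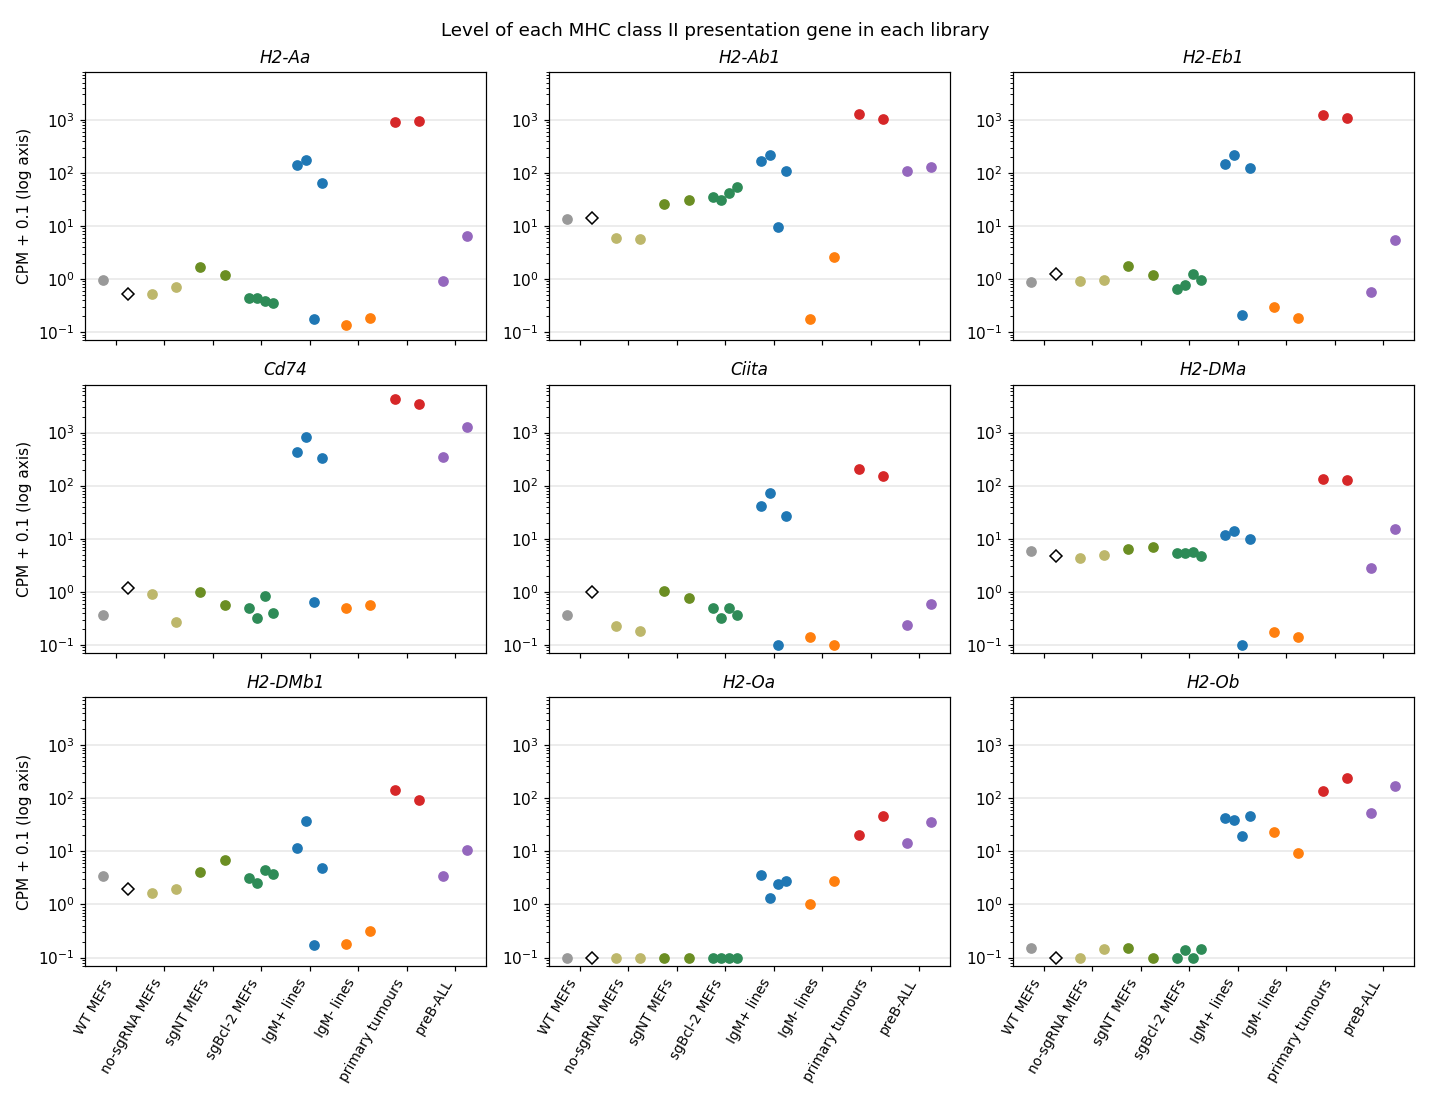
Level of each member in each library by group, as CPM + 0.1 on a log axis (each point is a library, and the open diamond is WT MEF library 13). H2-Oa and H2-Ob were present in all 6 lines and near 0 in MEFs, whereas the other 7 members were high in some lines and low in others.

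How the class II genes vary among the lymphoma lines was examined first. Ciita, the coactivator of the set, was at 40.8 CPM in line 14, 72.6 CPM in line 15 and 26.8 CPM in line 17. It had 0 reads in line 16, 1 read in line 18 and 0 reads in line 19, and 0 reads allow up to 0.114 CPM in line 16 and 0.129 CPM in line 19. The IgM-positive line 16 thus lay with the IgM-negative lines and not with the other IgM-positive lines.

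The classical chains, which form the peptide groove, were high and low in the same lines as Ciita. H2-Aa, the alpha chain of I-A, was at 137.8, 176.5 and 63.9 CPM in lines 14, 15 and 17, and at 0.0758, 0.0391 and 0.0862 CPM in lines 16, 18 and 19. H2-Eb1, the beta chain of I-E, was at 148, 218 and 126 CPM in lines 14, 15 and 17 and at 0.114, 0.195 and 0.0862 CPM in lines 16, 18 and 19. For both genes the values of lines 16, 18 and 19 rested on 5 reads or fewer. H2-Ab1, the beta chain of I-A, was at 165, 219.5 and 108 CPM in lines 14, 15 and 17. In the other lines it was less uniformly low, at 9.67 CPM in line 16, 0.0781 CPM in line 18 and 2.50 CPM in line 19.

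Cd74, the invariant chain, was at 435, 808 and 326 CPM in lines 14, 15 and 17 and at 0.531, 0.391 and 0.474 CPM in lines 16, 18 and 19. H2-DMa, the alpha chain of DM, was at 11.5, 13.8 and 9.71 CPM in lines 14, 15 and 17 and had 0, 2 and 1 reads in lines 16, 18 and 19. H2-DMb1, the beta chain of DM, was at 11.3, 37.3 and 4.78 CPM in lines 14, 15 and 17 and had 2, 2 and 5 reads in lines 16, 18 and 19. Invariant chain and DM transcripts were therefore low in the lines in which Ciita was low.

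The DO genes were present in every line. H2-Ob, the beta chain of DO, was at 42.1, 38.1, 19.0 and 45.6 CPM in lines 14, 15, 16 and 17 and at 22.9 and 9.40 CPM in lines 18 and 19. H2-Oa, the alpha chain of DO, was at 3.53, 1.20, 2.35 and 2.64 CPM in lines 14, 15, 16 and 17 and at 0.938 and 2.67 CPM in lines 18 and 19. H2-Ob was lower in lines 16, 18 and 19 than in lines 14, 15 and 17 without overlap, by a smaller fold than the classical chains, Cd74 and the DM genes, while the values of H2-Oa overlapped. Both were present in the lines with 0 Ciita reads.

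**Figure D2:**
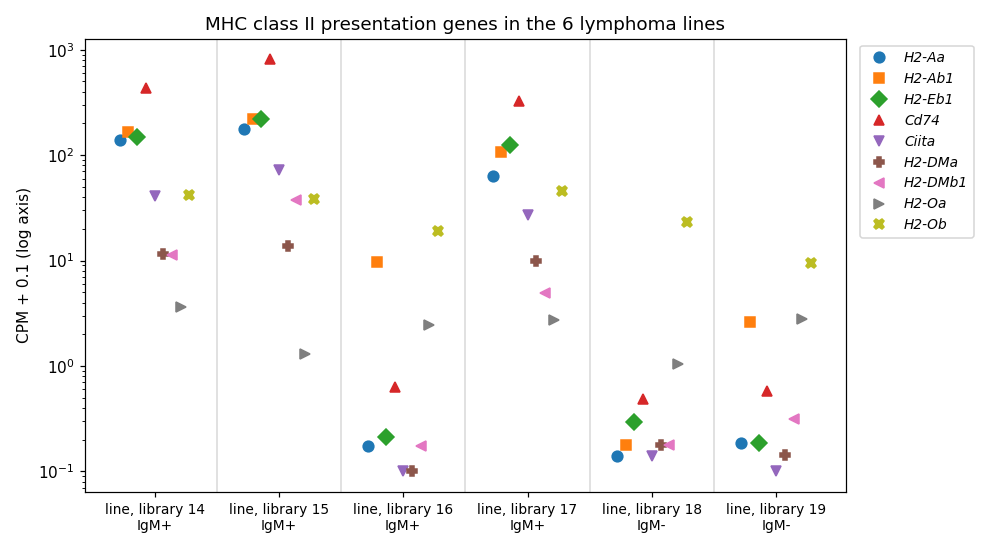
The 9 members in each of the 6 lymphoma lines, as CPM + 0.1 on a log axis, with the IgM label under each library. In lines 16, 18 and 19, Ciita had at most 1 read and H2-Ob was between 9.40 and 22.9 CPM, below its 38.1 to 45.6 CPM in lines 14, 15 and 17.

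Within a line, levels of different genes were compared per kilobase of exon. The DO level summed H2-Oa and H2-Ob, and the DM level summed H2-DMa and H2-DMb1, without the copy H2-DMb2. In lines 14, 15 and 17, the summed DO level was 10.3, 7.94 and 10.3 CPM per kb, and the summed DM level was 10.1, 26.2 and 5.66 CPM per kb. The ratio of DO to DM was 1.03 in line 14, 0.303 in line 15 and 1.83 in line 17. In lines 16, 18 and 19, DO was at 5.2, 4.92 and 3.65 CPM per kb and DM at 0.0451, 0.0691 and 0.141 CPM per kb, levels that rested on too few DM reads for a ratio. The invariant chain exceeded the summed classical chains by 1.47-fold, 1.97-fold and 1.57-fold per kb in lines 14, 15 and 17. The exon unions used were 1.679 kb for Cd74, 3.798 kb for H2-Aa, 2.568 kb for H2-Ab1 and 1.944 kb for H2-Eb1. All these ratios depend on such lengths.

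**Figure D3:**
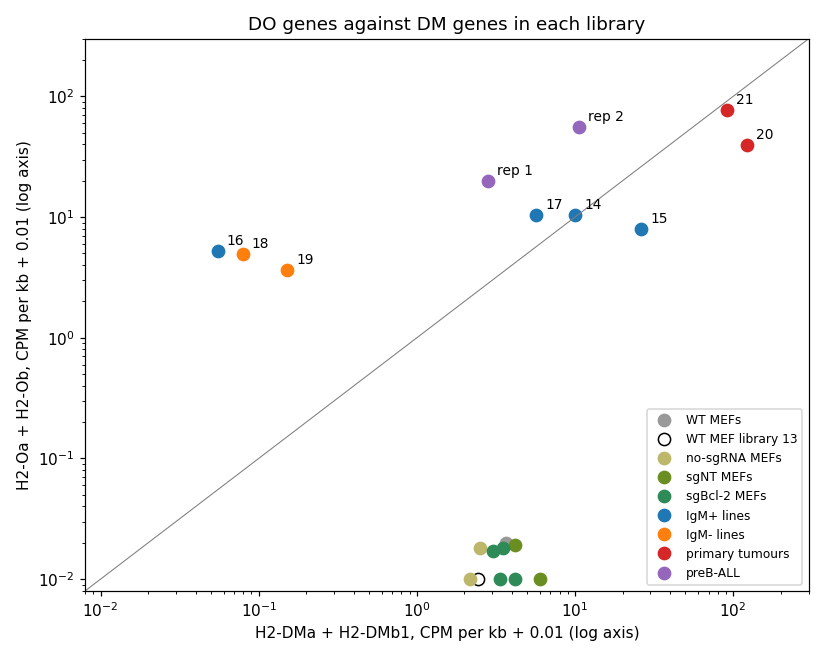
Summed level of the DO genes against that of H2-DMa and H2-DMb1 (H2-DMb2 left out) in each library, in CPM per kb of exon + 0.01 on log axes. The line of equal levels is in grey, and numbers mark lines, tumours and preB-ALL replicates (rep). Lines 16, 18 and 19 lie far above the grey line, lines 14, 15 and 17 and both tumours lie near it, and MEFs lie at the bottom with DM but almost no DO reads.

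IgM-negative lines were then compared with IgM-positive lines, the grouping that the labels give. Reads of immunoglobulin heavy chain V genes went with the label, at 3770 to 10925 reads in the 4 IgM-positive lines, line 16 included, and 8 and 1 reads in lines 18 and 19. None of the 9 members was called at an adjusted p under 0.05 (limma) or by edgeR or limma-voom, where 0.597% of the 12386 genes tested were called by limma. At an unadjusted p under 0.05, 5 members and 1397 genes passed. On the scale of log2(CPM + 0.1), used for all fold changes here, Ciita differed by -6.29 ± 2.63 (SE, adjusted p = 0.445), H2-Aa by -7.12 ± 2.80 (adjusted p = 0.422), Cd74 by -7.39 ± 2.85 (adjusted p = 0.41) and H2-Ab1 by -6.81 ± 1.53 (adjusted p = 0.185). H2-Oa differed by -0.43 ± 0.62 and H2-Ob by -1.16 ± 0.48, neither of them called (adjusted p = 0.443 for H2-Ob). Both IgM-negative lines lay below all 4 IgM-positive lines for H2-Ab1 and Cd74 alone, and 14.8% of all genes did so. The median log2 fold change over the members was -6.29, against -0.02 over all genes.

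The limma count depended on line 16, since 5 members and 91 of 12233 genes were called without it. With line 16 kept, DESeq2 on the recovered reads called 7 members and 749 of 12386 genes. Line 16 is also the library in which these members departed from the other IgM-positive lines. H2-Aa, H2-Eb1, Ciita, H2-DMa and H2-DMb1 passed the filter on low values only through IgM-positive lines, so counts over the members are a description here.

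The other genes of the pathway were set beside this split. The CIITA enhanceosome genes, which code for the RFX, NF-Y and CREB proteins, numbered 7, and none was called in this comparison. Their median log2 fold change was 0.02, and Rfx5, a subunit of RFX, was at 27.2, 47.2, 18.5, 24.4, 20.1 and 24.4 CPM in lines 14 to 19. Pax5, a B lineage factor among the 12 genes listed as inputs to Ciita, was at 90.6, 124.7, 50.1, 48.4, 55.2 and 43.1 CPM in the same order. The part of these genes in the Ciita values was not tested. No gene of the 12 inputs, the 8 endosomal processing genes, the 5 other genes listed inside the class II region (Psmb8, Psmb9, Tap1, Tap2 and Brd2), or the turnover and costimulation genes was called.

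The class II copies differed between themselves. H2-DMb2, the near copy of H2-DMb1, was at 3.16, 7.65 and 2.89 CPM in lines 14, 15 and 17 and at 0.0758, 0 and 0 CPM in lines 16, 18 and 19. H2-Eb2, the near copy of H2-Eb1, was present in all 6 lines at 7.92 to 48.9 CPM and did not show the split. H2-Ea, annotated as a pseudogene, reached at most 0.263 CPM in any library.

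Marker lists also varied along the lines. The 8 B cell markers summed to 1963, 1934, 1405 and 1892 CPM in lines 14 to 17 and to 1094 and 990 CPM in lines 18 and 19. The 8 dendritic cell markers summed to 2.03, 2.89 and 2.09 CPM in lines 14, 15 and 17 and to 23.5, 39.0 and 42.4 CPM in lines 16, 18 and 19. Of these, Flt3, also a receptor of early lymphoid progenitors, gave 22.5, 37.8 and 41.9 CPM in lines 16, 18 and 19, while Itgax was at 0 in these 3 lines. Flt3 was picked out after its values were seen, and its part in the class II values was not tested.

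The primary tumours were compared with the lines of the same mice to see how the genes stand in tissue and in culture. All 9 members were higher in both tumours than in both lines. Ciita was at 201.6 CPM in tumour 20 and 152.2 CPM in tumour 21, against 40.8 CPM in line 14 and 72.6 CPM in line 15. Cd74 was at 4232 and 3509 CPM in the tumours against 435 and 808 CPM in the lines. The classical chains were at 919 to 1266 CPM in the tumours and at 137.8 to 219.5 CPM in the lines, without overlap.

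The DM genes showed the same direction. H2-DMa was at 132.6 and 128.1 CPM in tumours 20 and 21 against 11.5 and 13.8 CPM in lines 14 and 15, and H2-DMb1 at 141.9 and 90.8 CPM against 11.3 and 37.3 CPM. H2-Ob was at 135.1 and 242.3 CPM in the tumours against 42.1 and 38.1 CPM in the lines. H2-Oa was at 20.1 and 45.7 CPM in the tumours against 3.53 and 1.20 CPM in the lines. Tumour 20 was the higher tumour for Ciita, Cd74 and H2-DMb1, and tumour 21 for both DO genes.

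In this comparison limma called 4 members as higher, H2-Aa, H2-Ab1, H2-Eb1 and H2-DMa, where 0.267% of 12719 genes were called higher. The log2 fold changes were 2.54 ± 0.17 (SE) for H2-Aa, 2.53 ± 0.20 for H2-Ab1, 2.62 ± 0.22 for H2-Eb1 and 3.31 ± 0.18 for H2-DMa, all with adjusted p = 0.0498. Cd74 differed by 2.65 ± 0.34 (adjusted p = 0.0652), Ciita by 1.64 ± 0.31 (0.0807), H2-Ob by 2.12 ± 0.34 (0.0711), H2-Oa by 3.76 ± 0.73 (0.082) and H2-DMb1 by 2.41 ± 0.61 (0.107). As ratios of mean CPM, the members were 3.12-fold (Ciita) to 13.9-fold (H2-Oa) higher. The same order without overlap was met in 31.1% of all genes, and the median log2 fold change was 2.54 over the members and 0.01 over all genes.

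**Figure D4:**
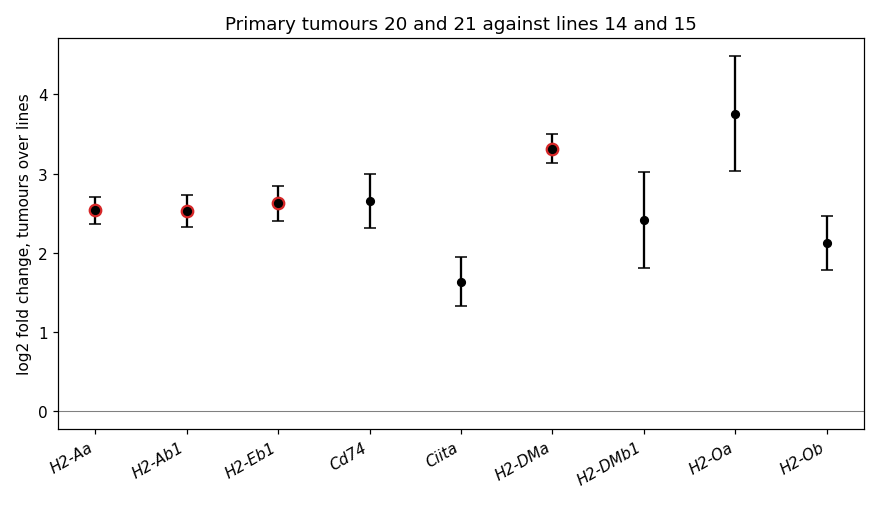
Log2 fold change of each member in primary tumours 20 and 21 over lines 14 and 15, with the standard error of the limma fit (n = 2 in each group). The 4 members with adjusted p under 0.05 have red points, and all 9 values lie above 0.

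These 4 calls lay at the threshold. With the tumours paired to lines by the mouse numbers in their titles, as a replicate block in limma, all 9 members were called (adjusted p = 0.00421 to 0.00915). So were 3600 of the 12719 genes tested. With the opposite pairing given in their descriptions, 0 members and 0 genes were called. The most frequent immunoglobulin heavy chain V gene was Ighv1-47 in tumour 20 and line 15 and Ighv1-77 in tumour 21 and line 14, the pairing of the titles. edgeR and limma-voom called none of the 9 and 0 genes in all, and DESeq2 called all 9 and 2100 of 12719 genes.

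Of the 8 B cell markers 1 was called higher in the tumours, Ms4a1 (528.9 and 799.1 CPM against 4.06 and 7.46 CPM), and of the 9 myeloid markers tested 0 were called. The log2 fold change was above 0 for 7 of the 8 B cell markers (median 1.115) and 8 of the 9 myeloid markers tested (median 2.54). Csf1r, Adgre1, Lyz2 and Fcer1g passed the filter on low values only through the tumours. Of the exceptions, Ebf1, a B cell factor, was at 41.6 and 85.7 CPM in the tumours against 114.4 and 106.9 CPM in the lines. The other, Mrc1, a macrophage marker, overlapped. The 15 myeloid markers summed to 56.9 and 53.8 CPM in tumours 20 and 21 against 21.0 and 9.22 CPM in lines 14 and 15, with 0 of the 15 at 0 CPM in either tumour. Adgre1, a macrophage marker, was at 13.3 and 6.33 CPM in the tumours and 0 in the lines, Csf1r at 1.05 and 1.30 CPM, C1qa at 0.219 and 0.399 CPM, the dendritic cell marker Itgax at 1.40 and 4.54 CPM and the T cell marker Cd3e at 0.613 and 0.548 CPM. The 8 B cell markers summed to 4674 and 5305 CPM in the tumours against 1963 and 1934 CPM in the lines. The part of these cells in the class II values was not tested.

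Among the other genes of the pathway, none of the 6 lists had a called gene in this comparison. The median log2 fold change was -0.31 over the 7 CIITA enhanceosome genes, 0.88 over the 8 endosomal processing genes and 2.61 over the 6 turnover and costimulation genes. Cd86, a costimulatory ligand, was at 15.8 and 11.4 CPM in the tumours and 1.34 and 0.225 CPM in lines 14 and 15. H2-DMb2 was at 232 and 167 CPM in the tumours and 3.16 and 7.65 CPM in the lines (adjusted p = 0.051).

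The lymphoma lines were next compared with the preB-ALL libraries. Ciita was at 0.134 CPM in preB-ALL replicate 1 and 0.481 CPM in replicate 2. H2-Aa was at 0.802 and 6.49 CPM and H2-Eb1 at 0.468 and 5.29 CPM in these libraries. By contrast, H2-Ab1 was at 106 and 126 CPM and Cd74 at 341 and 1248 CPM. In preB-ALL, H2-Ab1 and Cd74 were thus near or above the level of line 17, whereas Ciita, H2-Aa and H2-Eb1 were below those of lines 14, 15 and 17.

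The DO genes were high in preB-ALL. H2-Ob was at 52.0 and 166.7 CPM and H2-Oa at 14.4 and 35.3 CPM in replicates 1 and 2, above all 6 lines. H2-DMa was at 2.67 and 15.3 CPM and H2-DMb1 at 3.41 and 10.4 CPM. With DM as H2-DMa and H2-DMb1, the DO to DM ratio per kb was 7.10 and 5.27, above lines 14, 15 and 17 and both tumours. The copy H2-DMb2, left out of this ratio, was at 3.54 and 14.1 CPM in preB-ALL and 232 and 167 CPM in the tumours. It was above H2-DMb1 in these libraries and below it in lines 14, 15 and 17, so the ratios depend on leaving it out. The part of the fibroblast transcripts of these libraries in their class II values was not tested.

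In the test of the lines against preB-ALL, 1 member was called, H2-Oa as lower in the lines (-3.06 ± 0.59, adjusted p = 0.00387), where 22.5% of 13961 genes were called lower and 20.9% higher. H2-Ob differed by -1.48 ± 0.63 (adjusted p = 0.0884), Cd74 by -4.95 ± 3.38 (adjusted p = 0.265), Ciita by 2.80 ± 3.02 (adjusted p = 0.48) and H2-Ab1 by -2.50 ± 2.56 (adjusted p = 0.456). All 6 lines lay below both preB-ALL libraries for the 2 DO genes, and 38.3% of all genes did so. With the primary tumours in place of lines 14 and 15, or without preB-ALL replicate 2, H2-Oa was no longer called. The median over the members was -1.55, against -0.07 over all genes. Without a scaling factor the latter was -0.42, and 27.8% in place of 48.1% of all calls were higher.

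Of the 7 CIITA enhanceosome genes, 3 were higher and 1 lower in the lines than in preB-ALL. Rfxap differed by 0.89 ± 0.19 (adjusted p = 0.00615), Nfyc by 0.71 ± 0.14 (adjusted p = 0.0036) and Rfxank by -0.82 ± 0.27 (adjusted p = 0.0357). Without a scaling factor, the 3 higher genes were no longer called. Of the 12 inputs to Ciita, 5 were lower in the lines, among them Irf1, an interferon response factor (-1.75 ± 0.34, adjusted p = 0.00418), and Pax5 (-1.72 ± 0.40, adjusted p = 0.0095). Of the 8 endosomal processing genes, 3 were lower, among them Ctss, the protease that trims the invariant chain (-1.36 ± 0.47, adjusted p = 0.0465). Marchf8, a ubiquitin ligase that removes class II from the surface, was higher in the lines (2.12 ± 0.33, adjusted p = 0.00117), and Cd80, a costimulatory ligand of the same list, was lower (-4.28 ± 1.15, adjusted p = 0.0165). H2-Eb2 was higher (3.95 ± 0.57, adjusted p = 0.000859).

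MEFs served as cells that do not normally present antigen on class II. Over the 10 MEF libraries, H2-Ab1 ranged from 5.46 to 55.1 CPM with a median of 28.4 CPM, H2-DMa from 4.31 to 6.83 CPM and H2-DMb1 from 1.55 to 6.70 CPM. H2-Aa ranged from 0.257 to 1.61 CPM, H2-Eb1 from 0.562 to 1.66 CPM, Cd74 from 0.172 to 1.10 CPM and Ciita from 0.0860 to 0.926 CPM. H2-Oa had 0 reads in every MEF library and H2-Ob at most 1. H2-Ab1 and the DM genes were thus the members that MEFs held above 1 CPM in all 10 libraries.

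WT library 13, with its myeloid markers, lay within the range of the other MEFs in these genes except for Cd74. Its H2-Ab1 was 14.25 CPM against 13.3 CPM in WT library 11, its H2-Aa 0.418 against 0.849 CPM and its H2-DMb1 1.82 against 3.341 CPM. Ciita was higher in library 13 than in library 11, at 0.874 against 0.265 CPM, and Cd74 at 1.10 against 0.265 CPM, the highest Cd74 of any MEF library. Csf1r and Adgre1 were at 24.4 and 17.4 CPM in library 13, and Itgax at 0.950 CPM.

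Against the 4 sgBcl-2 MEF libraries, the 6 lymphoma lines were called higher for 2 of the 7 members tested, H2-Oa and H2-Ob, where 36.3% of 14620 genes were called higher and 45.0% lower. H2-Oa had 320 reads in the lines and 0 in these MEFs, which makes the lines at least 17.14-fold higher against 3 reads per library (adjusted p = 5.52e-07). H2-Ob was 1426-fold higher as summed reads, with 2 reads in the MEFs and an interval of 394.5 to 11780 that covers counting error only (adjusted p = 3.01e-08). Both DO genes passed the filter on low values only through the lines, so these calls follow from the filter and are a description. Ciita and H2-Aa did not pass it, and Cd74 differed by 4.96 ± 2.43 (adjusted p = 0.0815). H2-Ab1 differed by -1.49 ± 1.83 (adjusted p = 0.464) and was at 31.3 to 55.1 CPM in these MEFs, above lines 16, 18 and 19 and below lines 14, 15 and 17. Its mean CPM went the other way from the log2 difference, at 84.1 CPM in the lines and 40.95 CPM in the MEFs.

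In the same comparison, 6 of the 7 CIITA enhanceosome genes were higher in the lines, among them Creb1 (1.73 ± 0.12, adjusted p = 1.79e-07), and so were the 4 class I presentation genes inside the class II region and Brd2, led by Psmb8 (5.92 ± 0.23, adjusted p = 1.64e-09), an immunoproteasome subunit. Of the 12 inputs to Ciita, 4 were higher and 3 lower. The higher genes, Spi1, Pax5, Irf4 and Irf8, passed the filter only through the lines, with at most 0.404 CPM in these MEFs. Ifngr2 and Jak1, parts of the interferon gamma receptor pathway, were among the lower (-2.63 ± 0.11 and -1.91 ± 0.19). Of the 8 endosomal processing genes, 1 was higher, Ctss, and 5 were lower, among them Ctsd (-4.69 ± 0.11). Ctss, at 18.7 to 69.1 CPM in the lines and at most 0.216 CPM in these MEFs, and the copy H2-Eb2, at 7.92 to 48.9 CPM and at most 0.162 CPM, also passed the filter only through the lines.

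Among MEF groups, sgNT was first set against WT. H2-Ab1 was at 26.3 and 30.45 CPM in the sgNT libraries against 13.3 CPM in WT library 11 and 14.25 CPM in WT library 13. None of the 7 members tested was called by limma, edgeR or DESeq2, and 0% of 14560 genes were called by limma. At an unadjusted p under 0.05, 1 member (H2-Ab1) and 589 genes passed, and DESeq2 called 83 genes. H2-Ab1 differed by 1.04 ± 0.23 (adjusted p = 0.8), and for 4 members both sgNT libraries lay above both WT libraries, as did 22.0% of all genes. Without WT library 13, H2-Ab1 was called (1.02, adjusted p = 0.00219), as were 1644 genes, and without WT library 11, 3 members and 8424 genes were called.

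The sgNT MEFs were also compared with dCas9a-SAM KI/+ MEFs without an sgRNA, a comparison added after the values were seen. H2-Ab1 was at 5.73 and 5.46 CPM without an sgRNA and at 26.3 and 30.45 CPM with sgNT. Ciita was at 0.129 and 0.0860 CPM (3 and 2 reads) without an sgRNA and at 0.926 and 0.662 CPM (19 and 16 reads) with sgNT. Of the 7 members tested, 5 were called higher with sgNT, where 20.3% of 14655 genes were called higher and 20.9% lower. They were H2-Ab1 (2.30 ± 0.13, adjusted p = 2.33e-05), Ciita (2.09 ± 0.41, adjusted p = 0.00571), H2-DMb1 (1.52 ± 0.29, adjusted p = 0.00486), H2-Aa (1.23 ± 0.33, adjusted p = 0.0215) and H2-DMa (0.51 ± 0.16, adjusted p = 0.0403). Ciita passed the filter only through the sgNT libraries, so its call and the count over the members are a description. DESeq2 or no filter called 3 members, and leaving out 1 library 3 to 4. For 6 members the groups did not overlap, and for 37.9% of all genes both sgNT libraries were higher. The sgRNA and the transduction that goes with it cannot be told apart.

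Genes near the class II genes moved in this comparison too. The 3 class I presentation genes inside the class II region that were tested were higher with sgNT, namely Tap2 (1.74 ± 0.19, adjusted p = 0.000346), Tap1 (0.92 ± 0.15, adjusted p = 0.00209) and Psmb8 (2.40 ± 0.48, adjusted p = 0.00591), which passed the filter only through the sgNT libraries, and Brd2, a chromatin reader encoded there, was lower (-0.24 ± 0.08, adjusted p = 0.0431). Irf1, an interferon response factor among the inputs to Ciita, was lower (-0.58 ± 0.15, adjusted p = 0.0158). Of the 12 fibroblast markers, 9 were higher and 1 lower with sgNT.

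With sgBcl-2 instead of sgNT, H2-Aa was at 0.257 to 0.346 CPM (6 to 9 reads) in the 4 libraries against 1.61 and 1.12 CPM (33 and 27 reads). It was the only member called (-1.76 ± 0.30, adjusted p = 0.0119), where 4.24% of 14676 genes were called lower and 6.61% higher. H2-Aa and Ciita passed the filter only through the sgNT libraries, so this call is a description. H2-Ab1 went the other way, at 31.3 to 55.1 CPM against 26.3 and 30.45 CPM (0.59 ± 0.21, adjusted p = 0.107), and with the MEF line as a replicate block it was called as well (adjusted p = 0.0279). Ciita differed by -1.03 ± 0.34 (adjusted p = 0.0871). For 3 members, H2-Aa, Ciita and H2-DMa, all sgBcl-2 libraries lay below both sgNT libraries, as did 30.9% of all genes. Without either sgNT library in turn, H2-Aa was not called (adjusted p up to 0.136).

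**Figure D5:**
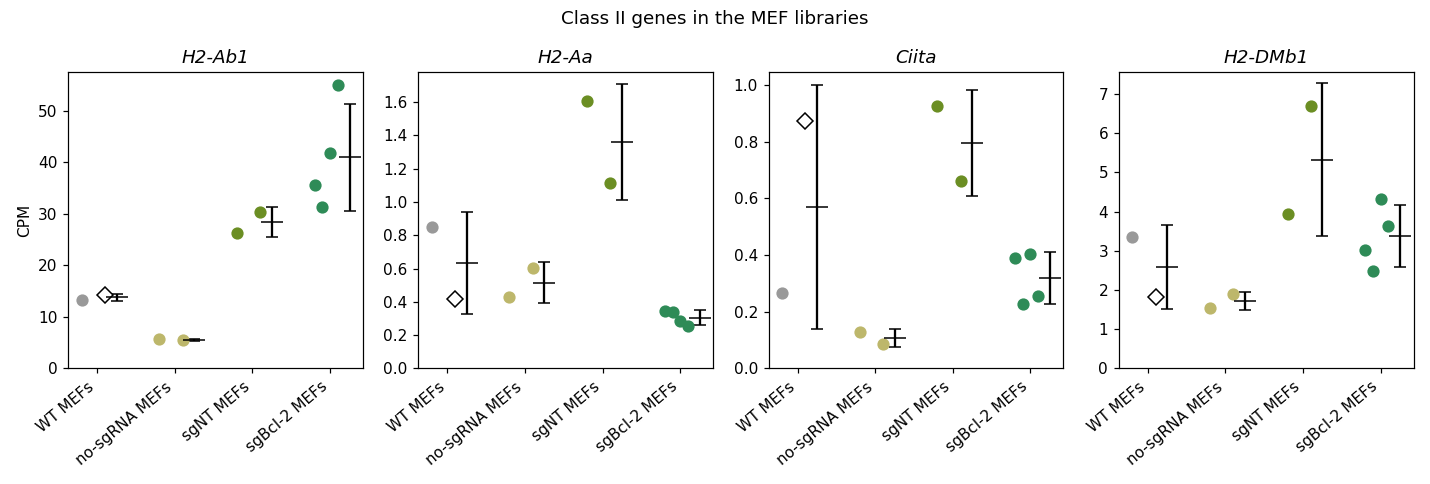
CPM of H2-Ab1, H2-Aa, Ciita and H2-DMb1 in each MEF library (points, with WT library 13 as an open diamond) and the mean and SD of each group (black bars, n = 2, 2, 2 and 4 libraries). The 4 sgBcl-2 libraries came from 2 MEF lines. H2-Ab1 was lowest without an sgRNA (5.46 and 5.73 CPM) and highest with sgBcl-2 (31.3 to 55.1 CPM), while H2-Aa was highest with sgNT.

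In the sgBcl-2 MEFs, 3 of 7 endosomal processing genes were higher and 1 lower than with sgNT. Ctsb, Lgmn and Ctsl, endosomal proteases, rose by 0.51 ± 0.13, 0.41 ± 0.10 and 0.34 ± 0.08 (adjusted p = 0.0386, 0.034 and 0.0351), and Ctsh fell by 0.44 ± 0.10 (adjusted p = 0.0298). Without a scaling factor Ctsl was not called, and 38.4% in place of 60.9% of all calls were higher. Jak1 was the called gene among the 8 inputs to Ciita that were tested (0.54 ± 0.12, adjusted p = 0.0254).

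Ordered over all groups, Ciita was highest in the tumours (176.9 ± 34.9 CPM, SD, n = 2), followed by lines 15, 14 and 17 at 72.6, 40.8 and 26.8 CPM, and lay under 1 CPM in every other library. H2-Ob had another order, with the tumours (189 ± 75.7 CPM) and preB-ALL (109 ± 81.1 CPM) overlapping, then the lines at 9.40 to 45.6 CPM and MEFs near 0. H2-Ab1 was highest in the tumours (1143 ± 174 CPM), and preB-ALL (116 ± 14.3 CPM) lay near line 17 and below lines 14 and 15.

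The genes most like the members were sought across all 20 libraries by Pearson correlation of log2(CPM + 0.1), as a description, among 13919 genes with at least 1 CPM in at least 6 libraries. These libraries share tumour types, mice and MEF lines. For the mean of H2-Aa, H2-Ab1, H2-Eb1 and Cd74 they were Galnt14 (r = 0.949), H2-DMb2 (0.942), Blk (0.908), Rd3l (0.906) and Phf11b (0.904). Blk, a kinase of the B cell receptor pathway, was at 89.5, 83.0 and 2.69 CPM in lines 14, 15 and 17 and at most 0.156 CPM in lines 16, 18 and 19. For Ciita they were Sorl1 (0.863), Slc44a2 (0.844), Lat2 (0.837), Gm3230 (0.825) and Galnt14 (0.820). Among the members themselves, the correlation with Ciita was 0.985 for H2-Eb1, 0.971 for H2-Aa, 0.804 for Cd74, 0.533 for H2-Ob and 0.490 for H2-Oa.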

How the data were processed

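RNA-seq was analysed for 20 mouse libraries. The authors aligned reads with Rsubread to GRCm38 (mm10), and the deposited unit is CPM per Entrez gene, not logged. Every value was a whole multiple of 1 read (100% within 0.01), so whole reads were recovered. Symbols came from RefSeq (GRCm38.p6), with 25242 of 25869 identifiers matched. Exon lengths were unions over GENCODE transcripts.

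Each comparison used only its own libraries, kept genes by filterByExpr of edgeR 4.0.16, and tested log2(TMM-scaled CPM + 0.1) with limma 3.58.1 (lmFit, eBayes with trend) under R 4.3.3. P-values were adjusted by Benjamini-Hochberg over all genes tested, and a gene was called at an adjusted p under 0.05. The comparison of sgNT MEFs with MEFs without an sgRNA was added after values were seen. Alternatives were edgeR quasi-likelihood and DESeq2 1.42.0 on recovered reads, limma-voom, no scaling factor, RLE scaling, pseudocounts of 0.5 and 1, no filter, each replicate left out, other comparison libraries and replicate blocks. The code was tested on simulated data.

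The members and lists were chosen with earlier results of these data known. Named genes were the 9 members, from each pathway list and comparison at most 3 called genes per direction whose groups did not overlap, defining cell type markers, and the 5 genes most like each of 2 member patterns. Rfx5, Cd86, Flt3 and the levels of Pax5 and the copies in the lines were picked after their values were seen. The MEF line number pairs sgNT and sgBcl-2 libraries: their line 1 minus line 2 differences correlated at 0.436 over 13392 genes. The other pairs of MEF groups gave 0.0565 (WT with no sgRNA), 0.0601 (WT with sgNT), 0.185 (WT with sgBcl-2), -0.0844 (no sgRNA with sgNT) and -0.195 (no sgRNA with sgBcl-2), so the numbers of the MEFs without an sgRNA did not deviate together with those of the other dCas9a-SAM groups. For tumours and lines, the titles' pairing gave a correlation of 0.596 over 11633 genes and the descriptions' pairing -0.596. Some genes of the lists are not reported here by name.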

Additional observations from a re-analysis of the deposited data

Results flagged for a closer look

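H2-DMb1 in line 15 was at 37.33 CPM (996 reads), far from the other 5 lymphoma lines, which lay between 0.0758 and 11.3 CPM. The gap to the next line was 0.698 of the whole range. Among 26 pairs of member and group looked at in this way, 1 stood out, and chance alone gives about 1 in 20.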

How the results depend on the processing

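Values below are counts of members called (then of all genes called), or log2 fold changes. For the lines against preB-ALL, 1 member (6059 genes) became 2 with DESeq2 or no scaling factor and 0 (3668) when the primary tumours replaced lines 14 and 15. Leaving out 1 library gave 0 to 1 (3177 to 6061), with 0 without preB-ALL replicate 2. For IgM-negative against IgM-positive lines, 0 members (74 genes) became 7 (749) with DESeq2, and the genes became 24 with edgeR, 1 with limma-voom and 47 with a pseudocount of 1. Leaving out 1 library gave 0 to 5 (35 to 117), with 5 without line 16. For the tumours against their lines, 4 members (42 genes) became 0 (0) with edgeR, limma-voom, RLE scaling, no filter or any 1 library left out (0 to 0), 9 (2100) with DESeq2, 2 (1418) with all IgM-positive lines, and 4 (79) without a scaling factor. With the replicate block by titles the count was 9 (3600), and by descriptions 0 (0). For the lines against sgBcl-2 MEFs, 2 members (11893 genes) became 4 with edgeR or DESeq2 and 2 to 3 (11450 to 11944) with 1 library left out.

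For sgNT against WT MEFs, 0 members (0 genes) became 0 (83) with DESeq2 and 0 to 3 (0 to 8424) with 1 library left out. For sgBcl-2 against sgNT MEFs, 1 member (1592 genes) became 2 with DESeq2, 2 with the MEF line as a replicate block, and 0 to 1 (156 to 1638) with 1 library left out, with 0 without either sgNT library. For sgNT against no sgRNA, 5 members (6029 genes) became 3 with DESeq2 or no filter and 3 to 4 (4099 to 4782) with 1 library left out. The block changed no other count of members.

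Of 827 values of single members under an alternative, 720 kept their direction and side of the threshold, 54 lost and 39 gained a call, and 14 changed direction, none of them called. Against preB-ALL, H2-DMb1 (-1.55) was 0.69 with edgeR and 0.60 with DESeq2, and H2-Aa (1.15) ranged, with 1 library left out, from -0.25 without preB-ALL replicate 1 to 2.50, and reached 4.47 over all its alternatives. Between IgM groups, H2-Oa (-0.43) ranged from -1.11 to 0.27 without line 18. Against sgBcl-2 MEFs, H2-Ab1 (-1.49) was 0.82 with edgeR and 0.63 with DESeq2, and H2-DMb1 (-1.20) was 1.17 and 0.99. For sgNT against WT, Cd74 (0.17) was -0.0303 with edgeR and -0.0114 with DESeq2, and ranged from -0.59 without WT library 11 to 0.96 (-0.20 without the first sgNT library), and Ciita (0.58) ranged from -0.0226 without WT library 11 to 1.22. For sgNT against no sgRNA, Cd74 (0.55) ranged from -0.33 to 1.43. The cause of these changes was not tested. Leaving out 1 of 2 libraries leaves a lone library, which is assumed to vary like the other group. Values under 3 reads cannot be ranked at this depth.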
